A study of Rattus norvegicus with 12 samples.

Results

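The genes of the choroid plexus epithelium were examined in cultured astrocytes (ASTRs) of adult rats as 5 transcripts, *Ttr*, *Cldn2*, *Enpp2*, *Calml4* and *Trpv4*, among the 17941 genes that were counted. They were taken by name as genes for which this epithelium is known, and their Ensembl identifiers came from additional file 1 of the study. That file gave the names of 3 of them, *Ttr*, *Cldn2* and *Enpp2*, in a list of genes chosen as higher in wmASTRs in these same libraries, and the names of the other 2 in that part of its list of all genes that held the largest positive fold changes. Which way each gene differs between the groups was therefore known from how it could be named, and the counts of genes and tests of the group difference given here are not independent evidence of a direction.

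RNA was measured in 6 cultures of gmASTRs, made from the cerebral cortex after removal of the meninges, and in 6 cultures of wmASTRs, made from the remaining brain without the amygdala. The wmASTR tissue held white matter tracts such as the corpus callosum but also hippocampus, thalamus and basal ganglia. Both kinds of culture came from young adult female Wistar rats, were prepared side by side, with each gmASTR culture and its wmASTR counterpart taken from 1 and the same rat, were kept without a shake-off step for 20 days and were passaged at least once with trypsin. No genetic change or drug treatment is named for either group. Whether choroid plexus was removed with the rest of the tissue is not given in the sources used here. Libraries were made from the 3′ ends of polyadenylated transcripts, so that a read count does not grow with transcript length. Levels are given as CPM, the counts of a gene per 1000000 counts of its library, with the SD over the 6 libraries of a group. Total counts were between 4920488 and 6356487 in gmASTRs and between 5363330 and 7207118 in wmASTRs, a difference that did not pass a two-sided exact permutation test (p = 0.216). The floor used here, 3 counts in a library, came to between 0.416 and 0.610 CPM.

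The choroid plexus is a sheet of cuboidal epithelium that lines folds of vessel-rich tissue inside the brain ventricles. It secretes cerebrospinal fluid and forms the barrier between blood and that fluid by means of tight junctions. Transthyretin, the product of *Ttr*, is its best known secreted protein and carries thyroxine and, together with retinol binding protein, retinol. *Cldn2* encodes claudin 2, a tight junction protein that lets cations and water pass between cells. *Enpp2* encodes autotaxin, a secreted enzyme that makes lysophosphatidic acid and is also known from oligodendrocytes. *Calml4* encodes a calmodulin-like protein that is part of the links between microvilli of brush borders. *Trpv4* encodes a calcium-permeable channel that opens upon cell swelling and warmth, and is found in astrocytes as well.

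*Ttr*, *Cldn2* and *Enpp2* were more abundant in wmASTRs, with every wmASTR library above every gmASTR library, whereas *Calml4* and *Trpv4* had higher means in gmASTRs with libraries that overlapped between the groups. With the quasi-likelihood test of edgeR over the 15478 genes with at least 1 count, 3 of the 5 genes passed an FDR of 0.05 as higher in wmASTRs and 0 as higher in gmASTRs, where 4.28% and 3.46% of all genes tested passed in these directions and 7.73% in either. At an unadjusted p under 0.05 of the same edgeR test, 3 genes passed as higher in wmASTRs and 1, *Calml4*, as higher in gmASTRs, where 14.1% and 10.8% of all genes tested passed. The stricter threshold of the study, an FDR under 0.01 with an absolute log2 fold change (log2FC) above 2, was passed by 2 genes, *Ttr* and *Cldn2*, and by 0.601% of all genes tested in that direction, against 0.401% in the direction of gmASTRs. The complete separation of the libraries that 3 of the 5 genes showed was found for 2.20% of the genes tested with wmASTRs above for 1.79% with gmASTRs above and for 3.99% either way. None of the 5 genes was in the table of 9394 genes that the authors kept after their filter on low counts. All log2FC values are gmASTRs over wmASTRs, so that a negative value stands for more transcript in wmASTRs, and their median over the genes tested was -0.026. In RNA of whole cultures, fewer cells of a type and less RNA per cell cannot be told apart.

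**Figure D1:**
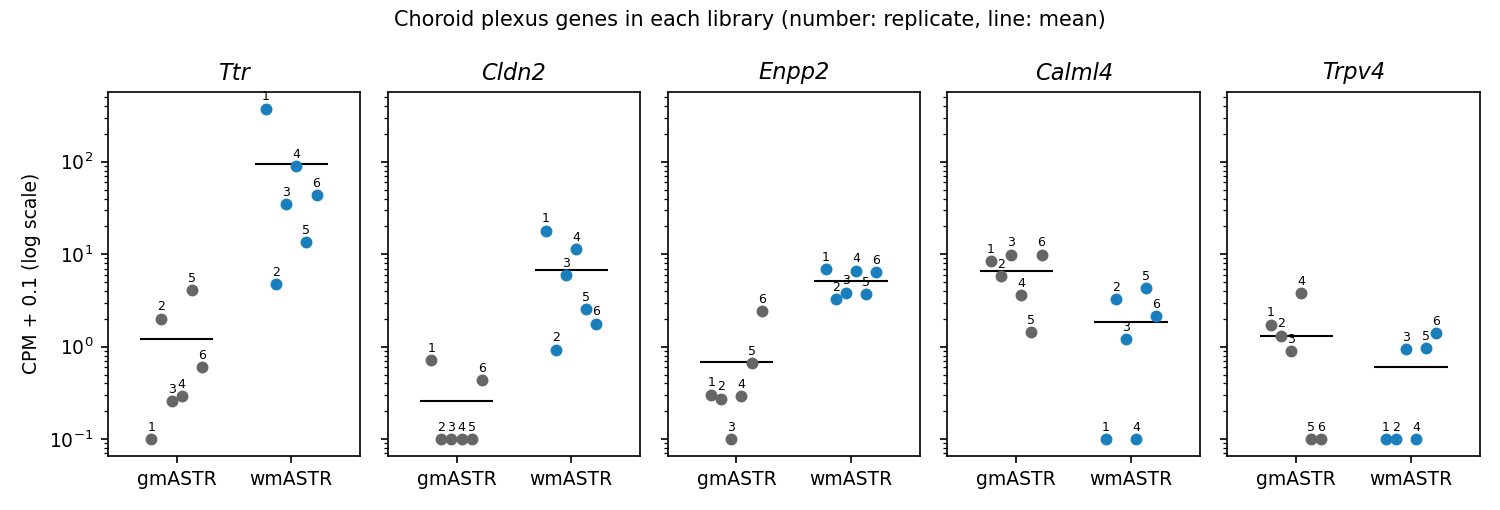
Level of each of the 5 choroid plexus genes in every library, as CPM + 0.1 on a log scale, with gmASTRs in grey and wmASTRs in blue; the number at each point is the replicate and the line is the mean of the group. The wmASTR libraries lie above all gmASTR libraries for *Ttr*, *Cldn2* and *Enpp2*, with wmASTR replicate 1 at 376 CPM of *Ttr*, and overlap with them for *Calml4* and *Trpv4*.

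*Ttr* (ENSRNOG00000016275), the gene of the carrier of thyroxine and retinol, showed the largest difference of the 5 genes and the widest range of levels within wmASTRs. In gmASTRs it had 0 counts in replicate 1, 1.91 CPM in replicate 2, 0.157 CPM in replicate 3, 0.193 CPM in replicate 4, 3.98 CPM in replicate 5 and 0.498 CPM in replicate 6. In wmASTRs it was at 376 CPM in replicate 1, 4.65 CPM in replicate 2, 34.7 CPM in replicate 3, 88.9 CPM in replicate 4, 13.3 CPM in replicate 5 and 43.3 CPM in replicate 6. Thus 4 gmASTR libraries had no more than 3 counts, the highest gmASTR library, replicate 5 with 21 counts, stayed below the lowest wmASTR library, replicate 2 with 28 counts, and 1 wmASTR library held 67.0% of the summed CPM of its group. The mean was 1.12 ± 1.56 CPM in gmASTRs and 93.4 ± 141 CPM in wmASTRs (SD, n = 6 each), 83.2-fold higher in wmASTRs. The log2FC was -6.41 (SE 0.87, edgeR quasi-likelihood FDR = 2.23e-05), and the exact two-sided permutation test of the mean CPM gave p = 0.00216, the smallest value that 6 against 6 libraries allow. Without wmASTR replicate 1 the wmASTR mean was 37.0 ± 33.0 CPM and 32.9-fold above gmASTRs, and without gmASTR replicate 5 the fold was 170. With limma-voom as the test, the log2FC of -6.06 did not pass (FDR = 0.144), and with any 1 gmASTR library left out the exact permutation p was between 0.0628 and 0.0693. By its mean, *Ttr* stood above 88.2% of the genes tested in wmASTRs and above 31.3% in gmASTRs.

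The RefSeq promoter table held 3 of the 5 genes, *Ttr*, *Calml4* and *Trpv4*. The 300 bases around the start of *Ttr*, the gene with the largest difference, and of *Calml4*, which went the other way, are shown from 250 bases before to 50 bases after the start. They lie on the plus strand of GRCr8 at chr18:12218508-12218807 for *Ttr* and at chr8:72218636-72218935 for *Calml4*, and capitals mark the letters TAATC, the core that homeodomain proteins of the OTX type are known to bind.

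Ttr: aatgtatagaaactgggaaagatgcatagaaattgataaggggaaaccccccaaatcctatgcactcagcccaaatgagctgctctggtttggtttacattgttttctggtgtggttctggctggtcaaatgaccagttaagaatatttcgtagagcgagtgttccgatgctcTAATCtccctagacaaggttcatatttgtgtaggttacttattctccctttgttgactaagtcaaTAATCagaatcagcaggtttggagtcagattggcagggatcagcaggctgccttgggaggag
Calml4: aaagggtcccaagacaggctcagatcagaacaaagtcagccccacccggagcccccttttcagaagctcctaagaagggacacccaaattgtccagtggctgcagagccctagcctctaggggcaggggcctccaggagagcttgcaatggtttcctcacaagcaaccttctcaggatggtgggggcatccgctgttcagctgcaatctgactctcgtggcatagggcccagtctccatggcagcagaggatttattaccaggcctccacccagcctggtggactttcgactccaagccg

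The search read both strands, where the other strand reads GATTA. The *Ttr* window held TAATC 2 times, both on the plus strand, with the first base at -77 and at -12 from the start, whereas the windows of *Calml4* and *Trpv4* held none. The same letters were in 22.9% of the 33469 rat promoters of this length. The letters TGTTTAC, with GTAAACA on the other strand, a core known for forkhead proteins, were in none of the 3 windows and in 3.78% of all promoters. Only this exact string was searched, and other forms of a forkhead site were not. GC content was 43.7% for *Ttr*, 57.7% for *Calml4* and 73.7% for *Trpv4*. A match is a run of letters and does not show that a protein binds there.

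*Cldn2* (ENSRNOG00000054495), the tight junction protein that passes cations and water, was at or below the floor in all gmASTR libraries and above it in all wmASTR libraries. Its counts in gmASTRs were 3 in replicate 1, 2 in replicate 6 and 0 in the other 4 libraries, which is at most 0.610 CPM. In wmASTRs it was at 17.9 CPM in replicate 1, 0.831 CPM in replicate 2, 5.83 CPM in replicate 3, 11.3 CPM in replicate 4, 2.46 CPM in replicate 5 and 1.68 CPM in replicate 6. As for *Ttr*, replicates 1 and 4 were the highest and replicate 2, with 5 counts, was the lowest. The mean was 0.157 ± 0.259 CPM in gmASTRs and 6.65 ± 6.69 CPM in wmASTRs (SD, n = 6 each). The ratio of pooled counts, 234 in wmASTRs against 5 in gmASTRs, was 42.8 per total count, with a 95% exact interval of 18.1 to 133 that covers counting error only. The log2FC was -5.32 (SE 1.04, edgeR quasi-likelihood FDR = 0.00126; exact two-sided permutation p = 0.00216). Without both wmASTR replicates 1 and 4, left out after their values were seen, it was -4.01 and did not pass (edgeR quasi-likelihood FDR = 0.0985).

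*Enpp2* (ENSRNOG00000004089), which encodes autotaxin, differed less between the groups and was the most even of the 3 genes within wmASTRs. In gmASTRs it had 14 counts in replicate 6, 3 in replicate 5, 1 each in replicates 1, 2 and 4, and 0 in replicate 3, so that only replicate 6, at 2.33 CPM, was above 3 counts. In wmASTRs it was at 6.81 CPM in replicate 1, 3.16 CPM in replicate 2, 3.75 CPM in replicate 3, 6.51 CPM in replicate 4, 3.61 CPM in replicate 5 and 6.34 CPM in replicate 6. The highest wmASTR library was 2.16-fold above the lowest, against 80.7-fold for *Ttr* and 21.5-fold for *Cldn2*. The mean was 0.577 ± 0.877 CPM in gmASTRs and 5.03 ± 1.69 CPM in wmASTRs (SD, n = 6 each), 8.71-fold higher in wmASTRs and 22.1-fold higher without gmASTR replicate 6. The log2FC was -3.14 (SE 0.87, edgeR quasi-likelihood FDR = 0.0233; exact two-sided permutation p = 0.00216). This call was lost without wmASTR replicate 4 (-3.05, FDR = 0.0520), without wmASTR replicate 6 (-3.04, FDR = 0.0537) and without both wmASTR replicates 1 and 4 (-2.89, FDR = 0.124), all by the same edgeR quasi-likelihood test.

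As oligodendrocytes also make *Enpp2*, oligodendrocyte markers were read beside it. The myelin genes *Mbp* (log2FC = -4.61, FDR = 1.58e-04) and *Mag* (log2FC = -4.97, FDR = 0.00523) were higher in wmASTRs by edgeR's quasi-likelihood test. *Cldn11*, which leptomeningeal cells express as well, was higher in gmASTRs. Both myelin genes were named from the list of genes higher in wmASTRs. Their summed level was between 0 and 3.25 CPM in gmASTRs and between 5.63 and 37.1 CPM in wmASTRs. The lowest wmASTR library for this sum was replicate 4, which was the second highest for *Enpp2*, and the highest was replicate 6. The part of oligodendrocyte RNA in the level of *Enpp2* was not tested.

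*Calml4* (ENSRNOG00000038202), the calmodulin-like protein of brush borders, had the higher mean in gmASTRs. In gmASTRs it was at 8.33 CPM in replicate 1, 5.72 CPM in replicate 2, 9.75 CPM in replicate 3, 3.48 CPM in replicate 4, 1.33 CPM in replicate 5 and 9.80 CPM in replicate 6. In wmASTRs it was at 3.16 CPM in replicate 2, 1.11 CPM in replicate 3, 4.19 CPM in replicate 5 and 2.05 CPM in replicate 6, with 0 counts in replicates 1 and 4. The groups overlapped, with gmASTR replicates 4 and 5 inside the range of wmASTRs, and the 2 wmASTR libraries with no read were the 2 with most *Ttr* and *Cldn2*. The mean was 6.40 ± 3.50 CPM in gmASTRs and 1.75 ± 1.71 CPM in wmASTRs (SD, n = 6 each), a ratio of 3.65. The log2FC of 1.78 (SE 0.81, 95% interval 0.118 to 3.43) did not pass over all genes (edgeR quasi-likelihood FDR = 0.174), while the exact two-sided permutation test of this single gene, not adjusted, gave p = 0.0216.

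*Trpv4* (ENSRNOG00000001195), the channel that opens on swelling, was near the floor in both groups. In gmASTRs it was at 1.63 CPM in replicate 1, 1.21 CPM in replicate 2, 0.787 CPM in replicate 3 and 3.67 CPM in replicate 4, with 0 counts in replicates 5 and 6. In wmASTRs it was at 0.833 CPM in replicate 3, 0.867 CPM in replicate 5 and 1.31 CPM in replicate 6, with 0 counts in replicates 1, 2 and 4. Libraries with and without reads were thus present in both groups. The mean was 1.22 ± 1.37 CPM in gmASTRs and 0.501 ± 0.573 CPM in wmASTRs (SD, n = 6 each). The log2FC of 1.14 had a 95% interval of -1.80 to 4.09 (edgeR quasi-likelihood FDR = 0.686; exact two-sided permutation p = 0.327), which holds differences in either direction. The ratio of pooled counts, 39 in gmASTRs against 19 in wmASTRs, was 2.24 per total count, with a 95% exact interval of 1.26 to 4.11 that covers counting error only and not the spread between libraries.

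**Figure D2:**
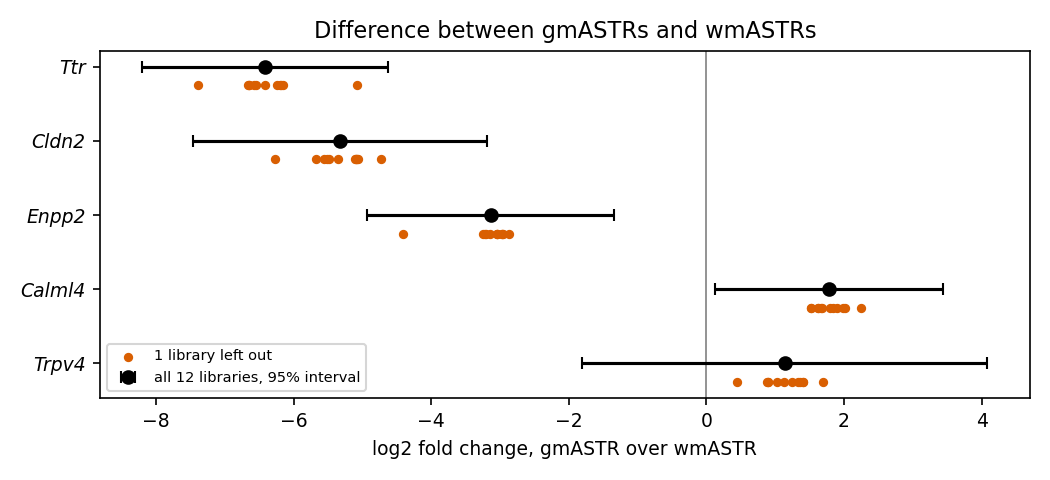
The log2FC of gmASTRs over wmASTRs for each gene, with its 95% interval over all 12 libraries in black and, in orange, the 12 values with 1 library left out. *Ttr* stayed between -7.39 and -5.08, *Cldn2* between -6.27 and -4.73, *Enpp2* between -4.41 and -2.87, *Calml4* between 1.52 and 2.24 and *Trpv4* between 0.44 and 1.69.

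In wmASTRs the order of the 5 genes by mean CPM was *Ttr*, *Cldn2*, *Enpp2*, *Calml4* and *Trpv4*, and in gmASTRs it was *Calml4*, *Trpv4*, *Ttr*, *Enpp2* and *Cldn2*. Since reads came from 3′ ends, these levels were compared as CPM. Most neighbours in these orders differed by less than their SD. The exceptions were *Enpp2* and *Calml4* in wmASTRs and *Calml4* and *Trpv4* in gmASTRs, while *Ttr* was above *Cldn2* in all 6 wmASTR libraries although its SD exceeded the difference of their means. The summed CPM of the 5 genes was between 5.87 and 13.0 in gmASTRs and between 11.8 and 400 in wmASTRs. Without *Ttr* these sums were between 1.89 and 12.5 in gmASTRs and between 7.15 and 24.7 in wmASTRs, so that the excess of the highest wmASTR libraries was mainly in *Ttr*.

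The next comparison asked whether the same wmASTR cultures were high for several of the genes. *Ttr* and *Enpp2* ranked the 6 wmASTR libraries identically, from replicate 1 over 4, 6, 3 and 5 down to replicate 2. In this order the counts of *Enpp2* were 37, 37, 34, 27, 25 and 19. Replicates 1 and 4 were thus ordered by library totals only, and other neighbours differed by few counts. *Cldn2* also had replicates 1 and 4 highest and replicate 2 lowest. *Calml4* ran the other way, with its highest level in replicate 5, then replicate 2, and no count in replicates 1 and 4. Over log2(CPM + 0.5), 6 pairs of genes were compared, with exact permutation p-values adjusted over the 6 pairs by Benjamini-Hochberg. *Ttr* and *Enpp2* gave r = 0.866 (adjusted p = 0.0167, exact, n = 6; rho = 1.0, adjusted p = 0.0167), and r = 0.815 without the 2 libraries farthest from the median of *Ttr*. *Ttr* and *Cldn2* gave r = 0.895 (adjusted p = 0.0333, exact, n = 6; rho = 0.829, adjusted p = 0.07), and r fell to 0.638 without these 2 libraries.

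*Calml4* was inversely related to *Ttr* (r = -0.875, adjusted p = 0.0375, exact, n = 6; rho = -0.87, adjusted p = 0.0667) and to *Cldn2* (r = -0.916, adjusted p = 0.0333; rho = -0.812, adjusted p = 0.0722). Without the 2 libraries farthest from the median of *Ttr* the first was -0.918, and without the 2 farthest from the median of *Cldn2* the second was -0.889. The remaining pairs did not pass, with r = 0.634 for *Cldn2* and *Enpp2* (adjusted p = 0.157, exact, n = 6) and r = -0.754 for *Enpp2* and *Calml4* (adjusted p = 0.143, exact, n = 6). With 1 wmASTR library left out, r of *Ttr* and *Cldn2* was between 0.811 and 0.981. It passed in none of these 6 fits (adjusted p between 0.05 and 0.175, exact). The exact test over 5 libraries has few possible orders, which limits how small p can be. The libraries were analysed without a batch term. By the study's methods all samples were pooled for sequencing, while the culture preparations were independent and their dates are not given.

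**Figure D3:**
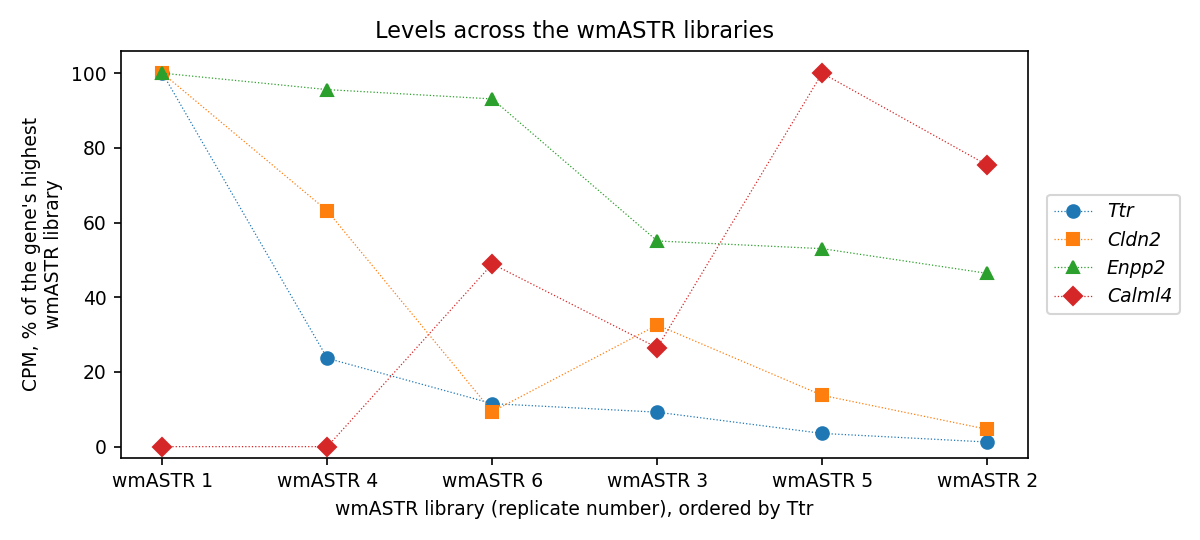
Level of *Ttr*, *Cldn2*, *Enpp2* and *Calml4* in each wmASTR library as a percentage of the highest wmASTR library of that gene, with the libraries ordered by *Ttr*; dotted lines only join points of 1 gene. *Ttr* and *Enpp2* decline in the same order, *Cldn2* nearly so, and *Calml4* has 0 counts in replicates 1 and 4.

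Other genes of the choroid plexus epithelium were then read from a list of 35, of which 5 had an identifier here. Of these, 3 were higher in gmASTRs and 2 did not pass by edgeR's quasi-likelihood test, with a median log2FC of 1.20. As names were mostly known for genes with a positive fold change (92.4% of the 2070 named genes, of which 22.7% were called higher in gmASTRs and 5.85% higher in wmASTRs), this direction is not evidence about the epithelium. *Igfbp2*, a binding protein of insulin-like growth factors, averaged 6930 ± 1580 CPM in gmASTRs against 2910 ± 1360 CPM in wmASTRs (SD, n = 6 each) without overlap (log2FC = 1.20, edgeR quasi-likelihood FDR = 0.00263). *Msx1*, a homeodomain factor, was at 297 ± 124 against 139 ± 35.6 CPM (log2FC = 1.03, edgeR quasi-likelihood FDR = 0.0024), and *Cdkn1c*, an inhibitor of the cell cycle, at 23.2 ± 11.2 against 7.55 ± 5.81 CPM (log2FC = 1.55, edgeR quasi-likelihood FDR = 0.0224). The growth factor gene *Igf2* (log2FC = 1.02, edgeR quasi-likelihood FDR = 0.0829) and the keratin gene *Krt8* (log2FC = 1.24, edgeR quasi-likelihood FDR = 0.155) did not pass. Without gmASTR replicate 5 all 5 passed. Their gmASTR means, from 23.2 CPM for *Cdkn1c* to 6930 CPM for *Igfbp2*, were above those of the 5 choroid plexus genes above, and they are known from other cells as well.

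Partners of the 5 genes in their pathways were read in the same way. Of the transport genes of fluid secretion, 1 of 16 had an identifier, the sodium bicarbonate carrier gene *Slc4a10*. It was at 11.8 ± 14.0 CPM in gmASTRs, with 36.5 CPM in replicate 4 and 0 counts in replicate 2, and at 0.724 ± 1.15 CPM in wmASTRs (SD, n = 6 each; log2FC = 3.90, edgeR quasi-likelihood FDR = 0.0172). Of the genes that handle the cargo of transthyretin, 2 of 15 had one, where the thyroid hormone receptor gene *Thra* was higher in gmASTRs (log2FC = 1.35, edgeR quasi-likelihood FDR = 8.11e-05) and *Aldh1a2*, which makes retinoic acid, did not pass (log2FC = 1.19, edgeR quasi-likelihood FDR = 0.165).

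The receptor for the product of autotaxin, *Lpar1*, was the 1 of 9 genes of its list with an identifier. It averaged 87.7 ± 43.3 CPM in gmASTRs against 23.6 ± 10.6 CPM in wmASTRs (SD, n = 6 each; log2FC = 1.81, edgeR quasi-likelihood FDR = 2.21e-04). Like the other genes of these pathway lists, it was named from the list of positive fold changes, so that its direction was known from its naming. Of the other tight junction genes, *Cldn11* was higher in gmASTRs (1840 ± 1430 against 27.5 ± 27.9 CPM, log2FC = 5.97, edgeR quasi-likelihood FDR = 1.36e-06). The gene of the junction protein occludin, *Ocln*, did not pass (log2FC = 0.99, edgeR quasi-likelihood FDR = 0.422). None of the 5 partners of *Calml4* in the links between microvilli had an identifier here.

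**Figure D4:**
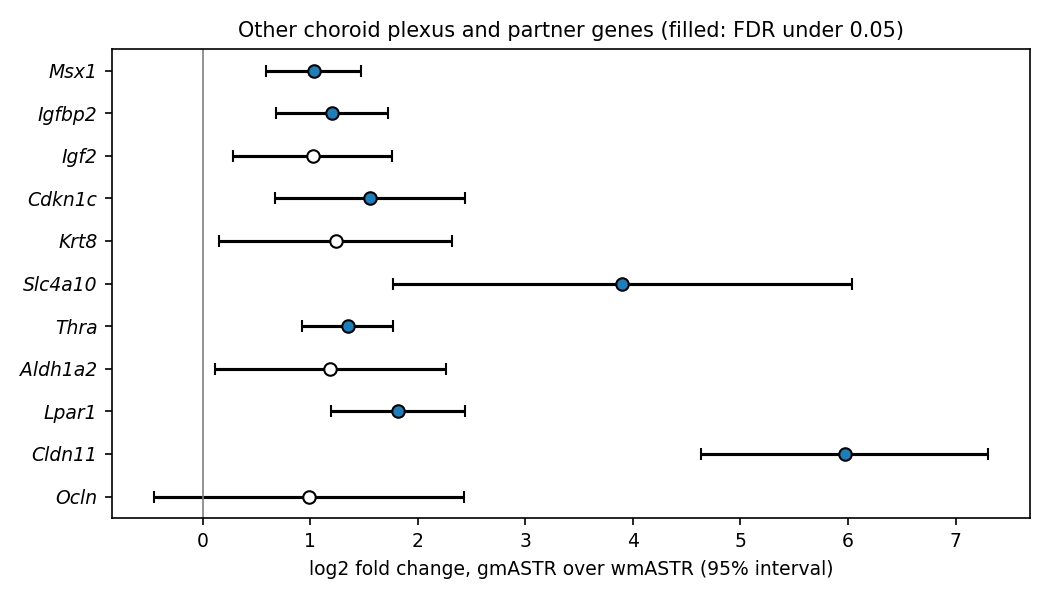
The log2FC of gmASTRs over wmASTRs with its 95% interval for the named genes of the other choroid plexus list and of the pathway lists; filled points passed an FDR of 0.05. All values are positive, from 0.99 for *Ocln* to 5.97 for *Cldn11*, and all were named from the list of positive fold changes.

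Markers of other cells were set beside these results. Of 8 astrocyte markers, 5 had an identifier, and the abundant *Gja1* (4790 ± 627 CPM in gmASTRs, 4370 ± 1240 CPM in wmASTRs) and *Vim* (2880 ± 236 and 2350 ± 96.5 CPM; SD, n = 6 each) were present in all libraries. The defining marker *Gfap* had 0 counts in all 6 gmASTR libraries and between 1.39 and 10.6 CPM in wmASTRs, and *Aqp4* was at 0.200 ± 0.338 and 3.69 ± 1.30 CPM, both higher in wmASTRs (edgeR quasi-likelihood FDR = 0.0019 and 0.0159), as was *Slc1a3* (log2FC = -1.43, edgeR quasi-likelihood FDR = 0.0128). The leptomeningeal markers, 6 of 13 with an identifier, summed to between 887 and 5400 CPM in gmASTRs and between 415 and 785 CPM in wmASTRs, with *Cldn11* alone between 112 and 3770 CPM in gmASTRs. By edgeR's quasi-likelihood test 3 of them were higher in gmASTRs, *Cldn11* and the forkhead genes *Foxd1* (log2FC = 2.27, FDR = 1.72e-06) and *Foxc1* (log2FC = 0.64, FDR = 0.00461), and 2 did not pass. Higher in wmASTRs was *Ptgds*, a prostaglandin synthase gene that the choroid plexus and oligodendrocytes also express (9.09 ± 9.01 CPM in wmASTRs, 1.00 ± 1.41 CPM in gmASTRs, log2FC = -3.22, edgeR quasi-likelihood FDR = 0.0213). *Ptgds* too was highest in wmASTR replicates 1 and 4, at 24.1 and 15.5 CPM.

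Of 6 markers of microglia and macrophages 3 had an identifier, and *Aif1* (log2FC = -2.57, FDR = 0.0242) and *Cd68* (log2FC = -2.78, FDR = 0.0123) were higher in wmASTRs by edgeR's quasi-likelihood test. The third, *Irf8*, did not pass (edgeR quasi-likelihood FDR = 0.425). The sum of the 3 markers was between 0.193 and 11 CPM in gmASTRs and between 11.7 and 45.2 CPM in wmASTRs, highest in wmASTR replicate 4. Ependymal cells, which adjoin the choroid plexus, were represented by 2 of 12 markers, and their sum was between 30.1 and 74.8 CPM in gmASTRs and between 12.9 and 35.4 CPM in wmASTRs. Of these, *Rarres2* was higher in gmASTRs (log2FC = 0.91, edgeR quasi-likelihood FDR = 0.0168) and the cilium gene *Tekt1* did not pass (FDR = 0.798). Of 7 endothelial markers 2 had an identifier and neither passed, *Egfl7* with an FDR of 0.594 and *Tek* with 0.736 by the same edgeR test. *Aqp4*, *Ptgds*, *Aif1* and *Cd68* were named from the list of genes higher in wmASTRs, and the leptomeningeal genes higher in gmASTRs, *Rarres2*, *Tekt1* and *Tek* from that of positive fold changes, so that these directions are not independent evidence. The part of these cells in the levels of the 5 genes was not tested.

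Last, the named genes whose pattern was most like that of *Ttr* and *Cldn2* were sought by Pearson's r of log2(CPM + 0.5). Over all 12 libraries and 2009 named genes, *Gas7* (r = 0.937), *Cldn2* (0.895), *Slc7a8* (0.89), *Vgf* (0.886) and *Tf* (0.881) were most like *Ttr*. Most like *Cldn2* were *Gas7* (0.929), *Nsg2* (0.919), *Spp1* (0.918), *Tf* (0.908) and *Ttr* (0.895). These values hold the difference between the groups, which all of these genes share. As 92.4% of the 2070 named genes had a positive fold change, which genes could be found here was largely set by naming. *Tf*, which encodes the iron carrier transferrin, averaged 6.66 ± 2.75 CPM in gmASTRs against 82.9 ± 45.8 CPM in wmASTRs (SD, n = 6 each) and was highest in wmASTR replicate 1, at 152 CPM. *Slc7a8*, an amino acid carrier gene, was at 4.29 ± 2.14 and 32.4 ± 24.1 CPM and was highest in wmASTR replicate 4, at 78.1 CPM. Within the 6 wmASTR libraries and over 1839 named genes, *Serp2* (0.968), *Med28* (0.961), *Acat2* (0.96), *Tram1l1* (0.937) and *Fzd2* (0.93) were most like *Ttr*, each highest in replicate 1. None of these 5 passed the test between the groups (edgeR quasi-likelihood FDR between 0.0734 and 0.874), and none was among the 5 of the search over 12 libraries. The r values were not tested. With 1839 candidates over 6 libraries, a high r of the top genes can arise by chance.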

How the data were processed

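RNA of 6 gmASTR and 6 wmASTR cultures was sequenced as 3′ libraries. The authors used HISAT (0.1.5) for alignment, SAMtools (1.2) for sorting and HTSeq (0.6.1p1) for counting per Ensembl gene, and deposited raw counts of 17941 genes and of the 9394 genes kept by their filter. The submitters' processing notes name GRCm38, a mouse build, and the study's methods a rat annotation, so the build is not settled and no coordinates of counted genes are given. Molecular identifiers are not mentioned in the sources used here, so the interval of pooled counts and the floors cover counting error only, while intervals of log2FC come from edgeR and hold the spread between libraries. Overlapping genes cannot be told apart, as the counting did not use strand.

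CPM, fold changes and tests were computed here. Genes with at least 1 count (15478) were tested with edgeR (4.0.16, R 4.3.3), TMM normalization, no covariate besides region, 0.125 as prior count, and p-values adjusted over all of them by Benjamini-Hochberg. Exact permutation tests ran over 924 divisions. The procedure was tested on simulated data. Alternatives used limma (3.58.1) and DESeq2 (1.42.0), other scalings and filters, each library left out and the replicate number as a block. Python (3.11.15), numpy (2.4.6), pandas (2.3.3), scipy (1.17.1) and matplotlib (3.10.9) were used.

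Names came only from additional file 1, which lists 2010 with their identifier, and 60 more were matched to an identifier through their 12 counts. Genes named are the 5 genes, the list members past an FDR of 0.05 with up to 4 more of highest mean CPM, and the 5 named genes most like *Ttr* or *Cldn2* with a mean of at least 1 CPM. Some list genes are not reported here. The genes and lists were chosen with earlier results of these data known. By the study's description the 6 libraries of a group come from independent culture preparations, and the p-values measure the spread between these. Cultures of both groups came from the same rats, but the labels do not say which libraries pair. Apart from the fit with the replicate block, the tests between the groups were therefore unpaired. Pairs of libraries within a group differed beyond sampling noise (chi-square per degree of freedom of 12.7 or more).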

Additional observations from a re-analysis of the deposited data

Results flagged for a closer look

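Among 34 groups of 6 libraries, 2 held a library that stood apart from the rest by Dixon's criterion, which chance alone meets in about 1 in 20 groups. *Ttr* in wmASTR replicate 1 was at 376 CPM, where the other wmASTR libraries were between 4.65 and 88.9 CPM. *Enpp2* in gmASTR replicate 6 was at 2.33 CPM, where the other gmASTR libraries were between 0 and 0.568 CPM.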

How the results depend on the processing

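No direction reversed in any setting. *Ttr* lost its call with limma-voom (-6.06). Without both wmASTR replicates 1 and 4, a setting added after the values were seen, *Cldn2* (-4.01) and *Enpp2* (-2.89) lost theirs and 765 genes were called, against 1197. With single libraries left out, the log2FC of *Enpp2* was between -4.41 and -2.87 and the difference in mean CPM of *Ttr* between -110 and -35.8. The count of other choroid plexus genes called was between 2 and 5 (5 without gmASTR replicate 5). In the same way r of *Ttr* and *Cldn2* was between 0.811 and 0.981, and its call was lost in all 6 fits (adjusted exact permutation p between 0.05 and 0.175). The permutation p of *Ttr* rose to between 0.0628 and 0.0693 whenever a gmASTR library was left out, since with groups of 5 and 6 libraries a division that puts wmASTR replicate 1 in the smaller group gives a larger difference. *Calml4* and *Trpv4* were not called in any setting. With edgeR's own filter *Cldn2* and *Trpv4* were not tested, so no value could be given.

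The labels do not say what replicate numbers mark, and same-numbered libraries did not deviate together (r between -0.0147 and 0.0047), with 0 of 12 libraries closest to their own number. With the replicate block the log2FC was -5.44 for *Ttr* (edgeR quasi-likelihood FDR = 9.93e-09), -5.39 for *Cldn2* (FDR = 6.51e-04) and -3.89 for *Enpp2* (FDR = 0.0126). It was 2.44 for *Calml4* (FDR = 0.147) and 1.44 for *Trpv4* (FDR = 0.863) by the same test, and 1301 genes were called. Depth limits the gmASTR levels of *Cldn2* and *Enpp2*, which were mostly at 3 counts or fewer.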
